A study of Mus musculus with 3 samples.

Results

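The genes that encode the non-muscle actin and myosin apparatus were followed across 3 levels of substrate stiffness. They were chosen by name: the cytoplasmic actins Actb and Actg1, the non-muscle myosin II heavy chains Myh9 and Myh10, the myosin light chains Myl6, Myl12a and Myl12b, the tropomyosins Tpm3 and Tpm4, and the cofilin Cfl1. These are 10 of the 56833 genes in the table, and all 10 had a mean of at least 50 normalized counts over the libraries. RNA was sequenced from tdTomato+ cells that had been sorted from the ankle synovium of Efhd1CreER; Ai9 mice and then kept for 24 h on collagen-coated CytoSoft plates. The plates had a stiffness of 0.2 kPa, 8 kPa or 64 kPa, called soft, intermediate and stiff. The genotype, sort, coating and culture time were common to all the plates, and the stiffness was the only labelled difference. In this line the Efhd1 gene drives an inducible Cre recombinase, which switches on the Ai9 tdTomato reporter permanently, so descendants of marked cells keep the label. The age, sex and number of the mice, and whether cells of several mice were pooled, are not given in the sources used here. The title of the series names the question, which is how matrix stiffness affects the differentiation of telocytes, a kind of interstitial cell, into fibroblasts.

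Each stiffness level had 1 library, so no difference has a replicate check and no test between levels is possible. The libraries held 25487064 (soft), 28081600 (intermediate) and 26474862 (stiff) reads. Where 3 values follow each other, they are in the order soft, intermediate, stiff. Ranges in parentheses are 95% counting intervals by the exact Clopper-Pearson method on recovered reads. They hold counting error only, because copies made by PCR do not count separate molecules and cultures vary too. Of the label's cell type, Pdgfra stood at 5118 to 6298, Cd34 at 235 to 318 and Kit at 38.7 to 45.1 normalized counts, while Efhd1 had 10, 5 and 3 reads. Markers of macrophages were also present: all 12 on the list were higher in the stiff than in the soft library, and their summed level was 28233 (soft), 35118 (intermediate) and 62307 (stiff) normalized counts. Summed fibroblast markers stood at 227690, 273992 and 326317 in the same order, with 4 of 8 higher in the stiff than in the soft library. Their log2 ratios of stiff to soft had a median of 0.12, from -0.44 (Dcn) to 0.95 (Col1a1). Hba-a1, Hbb-bs, Hbb-bt, Alas2, Cd3e, Cd3g, Cpa3, Ms4a2, Fcer1a, Tpsb2, Myh2 and Myh4, markers of red cells, T cells, mast cells, basophils and skeletal muscle, were at 0 reads in every library. Other markers of these lists were not: Mcpt8, a basophil protease, stood at 1134, 760 and 742 normalized counts, and Acta1, the skeletal muscle actin, at 168, 297 and 622. All 10 genes are widely expressed, macrophages included, and in bulk RNA fewer cells of a type and less RNA per cell cannot be told apart. The part of RNA from macrophages or other cell types in the results below was not tested.

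Actin monomers assemble into filaments, and bipolar filaments of non-muscle myosin II pull on them, which is how fibroblasts exert force on the matrix around them. Each myosin II molecule carries heavy chains with the motor domain, essential light chains and regulatory light chains, and phosphorylation of the regulatory chains switches the motor on. Tropomyosins lie along actin filaments and set which proteins can bind them, and cofilin severs older filaments so that monomers return to the pool. The pool of free actin monomers holds back the coactivators MRTF-A and MRTF-B, which act with the transcription factor SRF on genes that carry the CArG box, and several actin genes are well-known targets of SRF.

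The CArG box sequences are shown because members of these families are among the best-known SRF targets. In the RefSeq promoter table of GRCm38.p6, which covers 250 bases before to 50 after each start and was matched here letter for letter to GRCm39, 9 of the 10 genes had an entry. A CArG box (10 bases, searched on both strands) was in the windows of 2 of these 9 genes, Actg1 and Myl6, against 488 of 27025 genes (1.81%) in the whole table. The boxes are in capitals with 10 bases on either side, read 5′ to 3′ on the strand of the gene, and that of Myl9, a light chain gene of smooth muscle type, is added for comparison.
Actg1: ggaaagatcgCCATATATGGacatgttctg
Myl6: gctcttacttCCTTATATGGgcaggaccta
Myl9: caagcagaggCCTAATAAGGccgggctggc
On GRCm39 these lie at chr11:120239392-120239421 (minus strand), chr10:128328909-128328938 (minus strand) and chr2:156617213-156617242 (plus strand). The box of Actg1 spans bases 90 to 81 before its start, that of Myl6 bases 50 to 41 before its second listed start, and that of Myl9 bases 161 to 152 before its start. These starts are those of the RefSeq table. In the GENCODE annotation used for gene positions all 3 genes have transcripts that begin further upstream, and the 250 bases before each of these starts lie in annotated exons of the gene itself. A match is a description of letters, and windows without one say nothing about SRF. Of 10 other genes of the families with an entry, 3 had a box: Myl9, Acta1 and Actc1. In stiff to soft, Actg1 had a log2 ratio of 0.69, Myl6 0.24, Myl9 2.10 and Acta1 1.88, and Actc1 had 1, 3 and 0 reads. Genes of the families with an entry and no box ran from -0.38 (Myl12b) to 2.24 (Acta2). A link between the box and the ratio was not tested.

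Most of the apparatus was higher on the stiff plate, from 1.18-fold for Myl6 to 3.55-fold for Myh9 over the soft plate. Of the 10 genes, 9 were highest in the stiff library, against 42.2% of the 11873 genes that averaged 50 normalized counts or more. In 8 the levels were ordered soft, intermediate, stiff (30.2% of all those genes), and Myl12b had the reverse order (25.6%). Tpm4, and with the upper quartile as the scale also Myl6, turned lower in intermediate than in soft when the libraries were rescaled. The counting interval of stiff to soft lay above 0 for those 9 genes, and for 31.3% of all those genes, many of which have fewer reads and wider intervals. A log2 ratio of at least 0.5 in favour of stiff over soft was reached by 4 of the 10 (Actb, Actg1, Myh9 and Myh10), against 11.8% of all those genes. The median log2 ratio of the 10 was 0.43, against 0.005 over all those genes. All log2 ratios are of normalized counts plus a pseudocount of 1. In the ratio of intermediate to soft, Myh9 and Myh10 reached 0.5, 2 of the 10 against 3.94% of all genes. Myh10, at 0.51, was below 0.5 with a pseudocount of 10 or with the libraries rescaled, which left 1 of the 10. In the ratio of stiff to intermediate, Actb, Actg1 and Myh9 did, 3 of the 10 against 5.42%. The comparisons share libraries and so are not independent of one another. A log2 ratio of 1 was reached by Myh9 alone of the 10, in stiff to soft (3.22% of all genes) and in stiff to intermediate (0.825% of all genes).

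**Figure D1:**
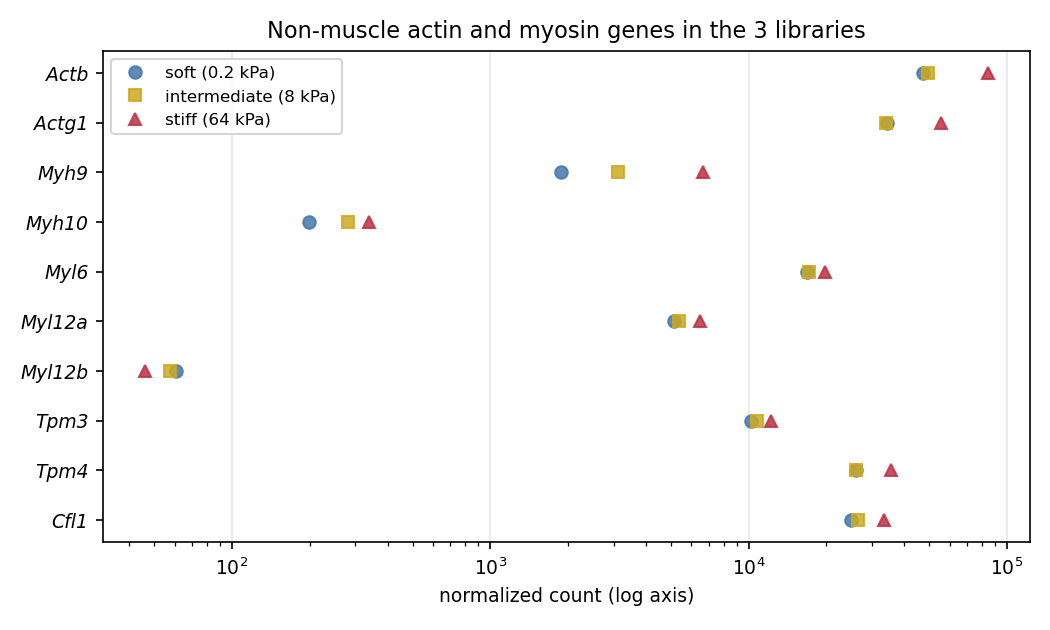
Normalized counts of the 10 genes (log axis) in the soft, intermediate and stiff library, 1 library per level; the points are single libraries. Myh9 is higher at each step, from 1873 to 6656, Actb and Actg1 are nearly level from soft to intermediate, and Myl12b stands at or below 60.5 throughout.

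The cytoplasmic actins differed between stiff and the other plates and hardly between soft and intermediate. Actb (β-actin; chr5:142888870-142892509, minus strand), which builds much of the contractile and protrusive network of most cells, stood at 47207 (soft), 49529 (intermediate) and 84152 (stiff) normalized counts. The soft and intermediate libraries were thus close together and the stiff library stood apart, 1.78-fold above soft. Its log2 ratio was 0.83 (0.82 to 0.85) for stiff to soft, 0.07 for intermediate to soft and 0.76 for stiff to intermediate. Only 8.31% of the log2 difference between soft and stiff was present at 8 kPa.

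Actg1 (γ-actin; chr11:120236512-120239617, minus strand), whose protein differs from β-actin mainly at its start, stood at 34382, 33867 and 55432 normalized counts on the soft, intermediate and stiff plates. The intermediate value was the lowest of the 3, by a log2 ratio of -0.02 to soft, and the stiff value was 1.61-fold above soft with a log2 ratio of 0.69 (0.67 to 0.71). Actb stood above Actg1 by 1.37, 1.46 and 1.52 reads per read in the 3 libraries. Few reads were assigned to near-identical copies. For Actg1, 7 other genes shared at least 95% of at least 300 bases, and their summed counts were 1.02% to 1.11% of its own. No other gene met this for Actb. How reads that fit several genes were counted is not given, so these counts do not show how much Actg1 signal was lost.

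Myh9 and Myh10 were the members past 0.5 at the first step, though neither was once the trend described below was subtracted. Myh9 (non-muscle myosin IIA; chr15:77644785-77726381, minus strand, 41 exons), the heavy chain that supplies most contractile force in fibroblasts, stood at 1873, 3107 and 6656 normalized counts on the soft, intermediate and stiff plates. Each level lay above the previous one, and the stiff value was 3.55-fold the soft value. The log2 ratios were 1.83 (1.75 to 1.90) for stiff to soft, 0.73 (0.65 to 0.81) for intermediate to soft and 1.10 (1.04 to 1.16) for stiff to intermediate. Of 11873 genes, Myh9 ranked 28th in stiff to soft, and 5th among the 5022 genes that averaged 1000 normalized counts or more.

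Myh10 (non-muscle myosin IIB; chr11:68582385-68707470, plus strand), a slower motor that holds tension for longer, was far less abundant, at 198, 282 and 338 normalized counts on the soft, intermediate and stiff plates. Its stiff-to-soft log2 ratio was 0.77 (0.51 to 1.04), and 65.9% of that difference was present at 8 kPa. The step from intermediate to stiff was 0.26 (0.03 to 0.49). The Myh9 to Myh10 ratio of reads within a library was 9.47 (8.16 to 11.04) in soft, 11.02 (9.79 to 12.45) in intermediate and 19.67 (17.60 to 22.03) in stiff. The soft and intermediate intervals overlapped and the stiff one lay above both. Myh14, the heavy chain of myosin IIC, had 0, 1 and 0 reads, and Myh11, the smooth muscle heavy chain, 7, 7 and 10.

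The heavy chain transcripts are long, 7439 bases for Myh9 and 7803 for Myh10, and over the genes measured the ratios moved with length and GC content. Across 11655 genes, Spearman's rho with the stiff-to-soft ratio was 0.26 for transcript length and 0.26 for GC content, a description over genes that share the same libraries. When a local trend in both was subtracted, Myh9 stood at 1.20 in stiff to soft and at 0.38 in intermediate to soft, and Myh10 at 0.35 and 0.25. Actb was then 0.91, Actg1 0.64 and Tpm4 0.55 in stiff to soft, so 4 of the 10 again reached 0.5, with Tpm4 in and Myh10 out, against 7.73% of all genes treated alike. In intermediate to soft none of the 10 reached 0.5, against 2.14%. Whether length itself played a part in the ratios of Myh9 and Myh10 was not tested.

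**Figure D2:**
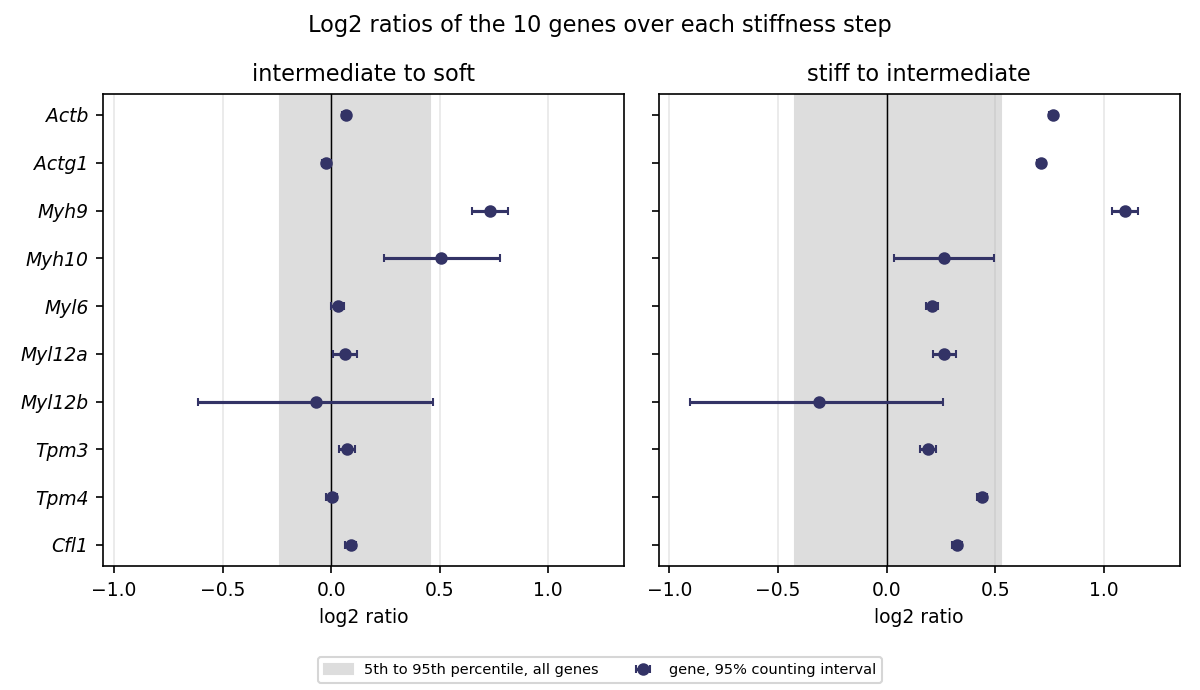
Log2 ratios of the 10 genes for intermediate to soft (left) and stiff to intermediate (right), with 95% counting intervals; the grey band runs from the 5th to the 95th percentile of the 11873 genes. Myh9 and Myh10 lie right of the band in the left panel, at 0.73 and 0.51, and Actb, Actg1 and Myh9 lie right of it in the right panel, at 0.76, 0.71 and 1.10.

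**Figure D3:**
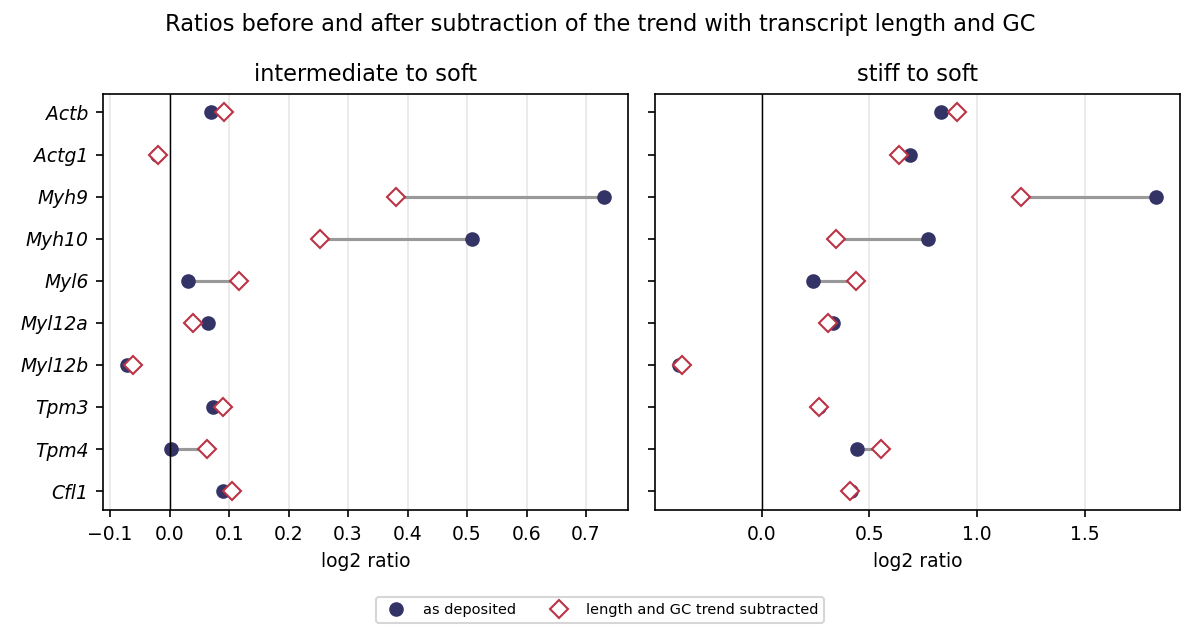
Log2 ratios of the 10 genes before and once the local trend in length and GC content is taken off (left, intermediate to soft; right, stiff to soft). Myh9 moves from 0.73 to 0.38 on the left and from 1.83 to 1.20 on the right, whereas Actb moves from 0.83 to 0.91 on the right.

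The non-muscle light chains differed far less than the heavy chain Myh9. Myl6 (chr10:128320267-128330014, minus strand), the essential light chain of both non-muscle and smooth muscle myosin II, stood at 16768, 17130 and 19798 normalized counts on the soft, intermediate and stiff plates. The stiff value was 1.18-fold the soft one, with a log2 ratio of 0.24. Myl12a (chr17:71299231-71310871, minus strand), a regulatory light chain, stood at 5133, 5368 and 6458 and had a stiff-to-soft log2 ratio of 0.33 (0.28 to 0.38). Both were ordered soft, intermediate, stiff, and neither reached 0.5.

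Myl12b (chr17:71280119-71297959, minus strand), the neighbouring regulatory light chain gene, was near the lower limit of measurement, with 59, 61 and 45 reads in the soft, intermediate and stiff library. Its stiff-to-soft log2 ratio was -0.38 (-0.98 to 0.19), so a difference was not detectable at this depth. Its counts are uncertain for another reason. Of its canonical transcript of 2226 bases, 739 (33.2%) lie in exons of the readthrough gene Gm49909 on the same strand, and it is 95.3% identical to Myl12a over 559 bases. Myl12a shares this limit in part: of its canonical transcript of 3657 bases, 462 (12.6%) lie in exons of Gm49909. It is 96.5% identical to Myl12b over 550 bases. How reads that fit several genes were counted is not given in the sources used here. The part of this in the low level of Myl12b, or in the level of Myl12a, was not tested.

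Tpm3, Tpm4 and Cfl1 were abundant and were higher on the stiff than on the soft plate, by 1.20-fold, 1.36-fold and 1.33-fold. Tpm4 (chr8:72884018-72906987, plus strand), a short non-muscle tropomyosin, stood at 26051, 26108 and 35444 normalized counts on the soft, intermediate and stiff plates. As with the actins, the soft and intermediate values hardly differed, and the stiff-to-soft log2 ratio was 0.44 (0.42 to 0.47). Tpm3 (chr3:89979949-90008226, plus strand), which gives rise to several cytoskeletal tropomyosins by alternative splicing, stood at 10207, 10739 and 12259 with a log2 ratio of 0.26. The counts are per gene and do not separate the isoforms.

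Cfl1 (cofilin-1; chr19:5540483-5545229, plus strand), which severs actin filaments, stood at 24948, 26553 and 33276 normalized counts on the soft, intermediate and stiff plates. Its stiff-to-soft log2 ratio was 0.42 (0.39 to 0.44), of which 21.6% was present at 8 kPa. In size of difference, Tpm4 and Cfl1 lay between Myl12a and Actg1, and Tpm3 lay between Myl6 and Myl12a.

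Levels between genes are compared per kilobase of the canonical transcript. In the soft library the order was Actb (24587 normalized counts per kilobase), Myl6 (24092), Actg1 (15621), Tpm4 (12072), Cfl1 (10598), Tpm3 (4434), Myl12a (1404), Myh9 (252), Myl12b (27.2) and Myh10 (25.4). The intervals of Actb and Myl6 overlapped, as did those of Myl12b and Myh10. In the stiff library Actb stood at 43829 and Myl6 at 28446 per kilobase, and their intervals were apart. Myh10 (43.4) then lay above Myl12b (20.7), with intervals apart. Myh9 remained well below Myl6 at every level, at 895 per kilobase in the stiff library. The other places in the order were the same in soft and stiff. The order depends on the length used. With all annotated exons merged, Myl6, whose canonical transcript has 696 bases, stood at 5163 per kilobase in soft, below Actb, Actg1, Cfl1 (8001) and Tpm4 (5689). Myh10 (17.2) then lay above Myl12b (7.28) already in soft.

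Set beside the other genes of the same families, the members' place differed by family. Among actins per kilobase, Actb made up 56.9% in soft, 57.2% in intermediate and 52.8% in stiff, and Actg1 36.2%, 34.1% and 30.4%. Acta2, the smooth muscle actin of myofibroblasts, made up 6.46%, 8.02% and 15.9%, with 7779 normalized counts in soft and 36823 in stiff. Its stiff-to-soft log2 ratio was 2.24 against 0.83 for Actb. Among heavy chains, Myh9 made up 90.5%, 91.8% and 95.2%.

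Regulatory light chains differed most in make-up. Myl9, the regulatory chain of smooth muscle type, stood at 751, 854 and 3216 normalized counts on the soft, intermediate and stiff plates, a stiff-to-soft log2 ratio of 2.10. Per kilobase Myl9 made up 27.5%, 29.2% and 56.5% of the regulatory chains, and Myl12a 71.1%, 69.6% and 43.0%. In reads, the ratio of Myl9 to Myl12a was 0.146 in soft, 0.159 in intermediate and 0.498 in stiff. Per kilobase the stiff library held more Myl9 than Myl12a, and the other libraries held less. In reads every library held less Myl9 than Myl12a, so the order in the stiff library depends on scaling by length.

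Tropomyosins shifted little: Tpm4 made up 54.0%, 53.0% and 52.3% per kilobase in the soft, intermediate and stiff library, and Tpm3 19.8%, 20.5% and 17.0%. Tpm1 and Tpm2, the tropomyosins prominent in smooth muscle and stress fibres, had log2 ratios of stiff to soft of 0.65 and 1.02, above 0.44 for Tpm4. Cfl1 held 66.03%, 67.17% and 65.74% of the cofilin family beside Cfl2 (log2 ratio 0.22) and Dstn (0.49), so its place hardly differed.

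**Figure D4:**
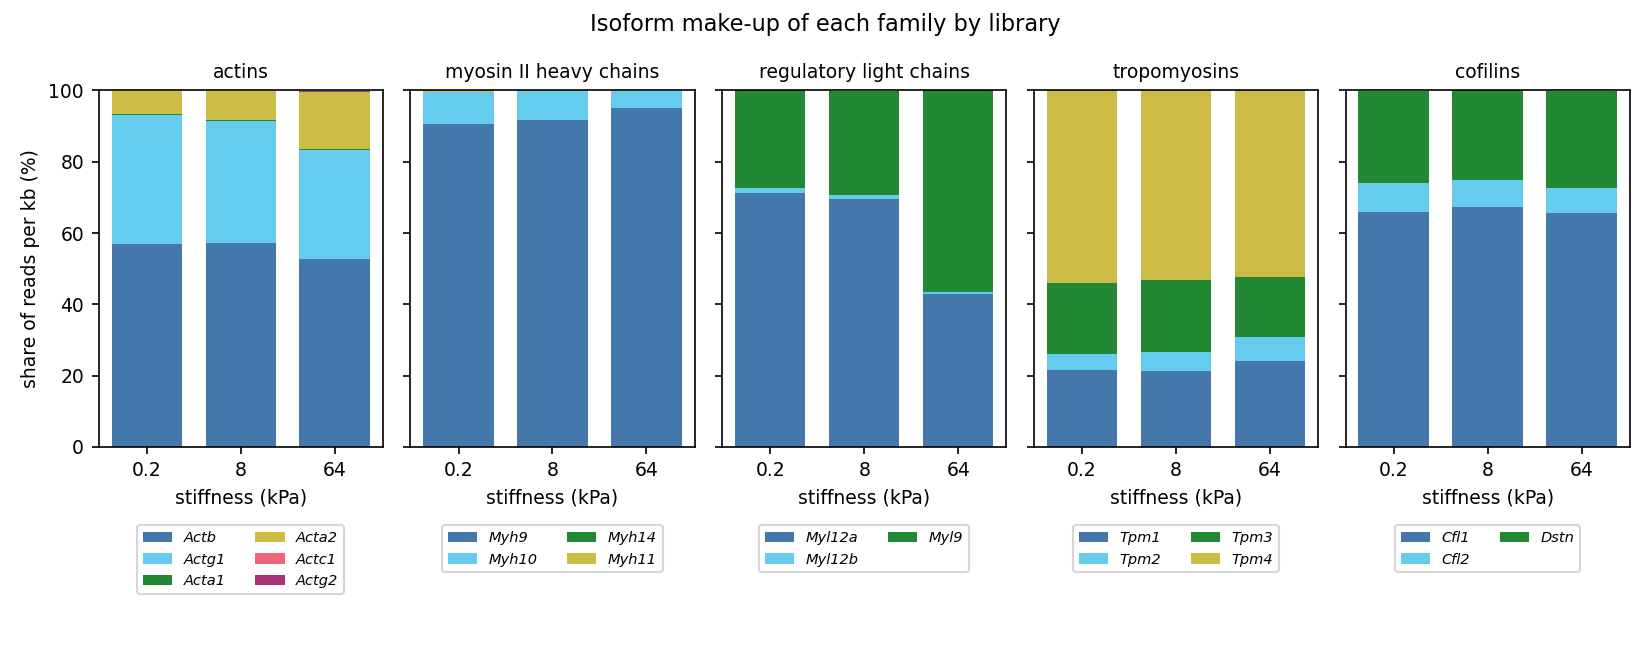
Share of each gene in its family's summed normalized counts per kilobase (percent, axis from 0 to 100) in the soft, intermediate and stiff library, 1 library per level. The share of Myl9 among regulatory light chains is 27.5%, 29.2% and 56.5%, and that of Cfl1 among cofilins stays between 65.7% and 67.2%.

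Genes that act on these proteins were taken from lists by role. Over these lists together, without the families above and the reference genes, 26 of 92 reached a log2 ratio of 0.5 in favour of stiff over soft and 1, Ect2, in favour of soft, against 11.8% and 3.77% of all genes. The median was 0.21, beside 0.43 for the 10 genes. These counts are descriptions of 1 pair of libraries. After subtraction of the length and GC trend, 7.73% of all genes reached 0.5 in favour of stiff over soft. Several of the lists below then had fewer genes past 0.5.

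Filament crosslinkers and bundlers were the list with the most genes past 0.5, 9 of 14, and a median of 0.70. Actn1, the α-actinin that bundles stress fibres and anchors them at adhesions, stood at 6176, 7677 and 13989 normalized counts on the soft, intermediate and stiff plates, a stiff-to-soft log2 ratio of 1.18. Palld, a scaffold along stress fibres, had 1.36. Pls3, a fimbrin of protrusions, was the lowest at -0.12. After subtraction of the length and GC trend the median was 0.50, with 7 of 14 past 0.5, against 7.73% of all genes treated alike.

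Genes of RhoA, ROCK and the phosphorylation of the regulatory light chains, which include enzymes that add and that remove it, had a median of 0.40, with 7 of 19 past 0.5 and Ect2 below -0.5. The myosin phosphatase subunits Ppp1r12a (0.67) and Ppp1r12b (0.62), which direct its removal, were among the 7. Cdc42bpb, a kinase related to ROCK, had the highest ratio of stiff to soft at 1.02. Mylk, the kinase that phosphorylates the regulatory light chain directly, stood at 682, 590 and 1189 normalized counts on the soft, intermediate and stiff plates, a log2 ratio of 0.80. Rock2 had 0.56 and Rock1 0.06, and Rhoa itself 0.09. Ect2, an activator of RhoA at cell division, had -0.51. When libraries were rescaled, by total reads or the upper quartile, 5 of 19 were past 0.5. After subtraction of the trend the median was 0.17, with 2 of 19 past 0.5 (7.73% of all genes treated alike) and none below -0.5. Rock2 (0.59) and Ppp1r12a (0.61) were those 2, while Cdc42bpb (0.44), Mylk (0.28) and Ect2 (-0.40) were no longer past 0.5 in size.

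The coactivators of SRF stood higher on the stiff plate. Mrtfa stood at 979, 1369 and 1800 normalized counts on the soft, intermediate and stiff plates, and Mrtfb at 247, 388 and 433. Their log2 ratios of stiff to soft were 0.88 and 0.81, and that of Srf was 0.62, while Scai, which represses MRTF activity, had -0.42. The median of the 4 was 0.71, and 0.34 after subtraction of the trend, when Mrtfa (0.61) alone was past 0.5, with Mrtfb at 0.40 and Srf at 0.27.

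Genes of branched filaments and of turnover differed little. None of the 9 genes of the Arp2/3 complex, which starts branches, reached 0.5 in stiff to soft, and their median was 0.03, -0.03 when scaled by total reads and 0.16 after subtraction of the trend. The 9 Arp2/3 activators also had none past 0.5 and a median of 0.06. Of 16 genes of monomer binding, capping and turnover, Wdr1, a cofilin cofactor, alone reached 0.5, at 0.54, and the median was 0.11. Pfn1, which loads actin monomers onto growing ends, had 0.49. When libraries were rescaled none of the 16 reached 0.5, and after subtraction of the trend Wdr1 was at 0.47 and Pfn1 at 0.51.

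Formins, which extend unbranched filaments, were mixed: 3 of 10 reached 0.5, Fmnl1 (1.90), Inf2 (0.61) and Diaph1 (0.56), while Fmnl2 had -0.20. The median of the formins was 0.23, and 0.00 after subtraction of the trend. Fmnl1 (1.54) and Diaph2 (0.52) were then past 0.5, 2 of 10 against 7.73% of all genes treated alike. Diaph1 (0.37) and Inf2 (0.14) were not. Fmnl1 is best known from blood cells, and it stood at 84.1, 169 and 317 normalized counts on the soft, intermediate and stiff plates, in the same order as the macrophage sum given above. Among kinases and phosphatases of cofilin, 2 of 8 reached 0.5: Ssh1 and Ssh2, phosphatases that activate cofilin, at 0.78 and 0.53. The cofilin kinases Limk1 and Limk2 had 0.23 and 0.03. The median of these 8 was 0.16, and -0.02 after subtraction of the trend, when none reached 0.5. Tropomodulins and leiomodins bind filament pointed ends. Of the 3 with a mean of at least 50, Lmod1, a gene of smooth muscle, alone reached 0.5, at 2.18. Tmod1, which fell below that mean, had 1.68.

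**Figure D5:**
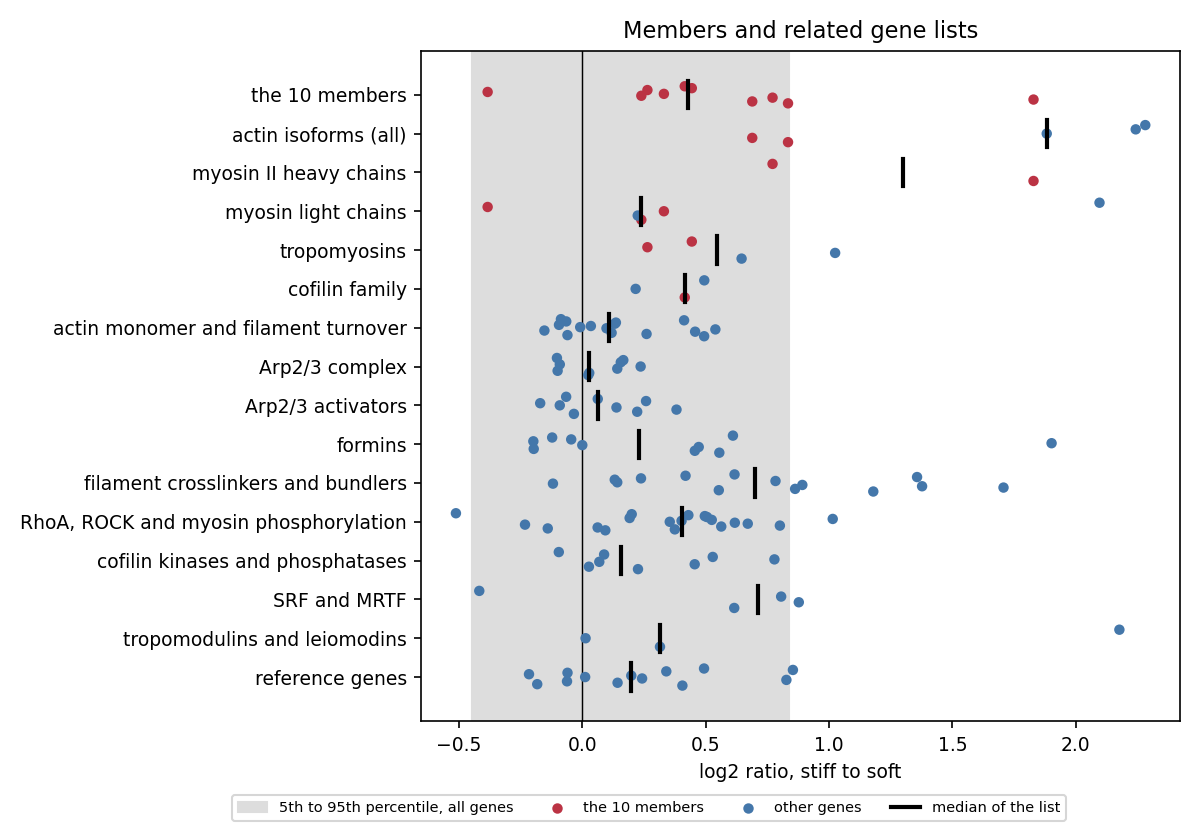
Log2 ratio of stiff to soft for the 10 genes (red), the genes of each list (blue) and each list's median (black bar); the grey band runs from the 5th to the 95th percentile of the 11873 genes. The median of crosslinkers and bundlers is at 0.70 and that of the Arp2/3 complex at 0.03, with all 9 genes of the complex inside the band.

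The genes most like Actb in pattern, by Euclidean distance over the 2 log2 ratios to soft among 4912 genes that averaged 1000 normalized counts or more and were on none of the lists, were Ptx3 (0.027), Samd4 (0.040), Ampd3 (0.043), Cxcl3 (0.044) and Maff (0.049). Ptx3, a secreted pentraxin, stood at 9858, 10154 and 17653 normalized counts on the soft, intermediate and stiff plates. Nearest to the median of the 10 genes was Thbs1, the matrix protein thrombospondin-1, at 107956, 112973 and 145515. A likeness over 3 libraries is a description.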

How the data were processed

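Bulk RNA was measured with stranded mRNA libraries, 1 per stiffness level, per the labels' protocols. The submitters' processing notes name bcl2fastq 2.20.0, STAR 2.7.9a, featureCounts of Subread 2.0.1, DESeq2 1.34.0 and GRCm39. The annotation release and the counting settings are not given in the sources used here. The deposited signal values are gene counts that the authors divided by a size factor per library, and the 3 deposited tables hold identical values. Divided by the smallest positive value of its column, 100.0% of values came out whole within 0.01 reads, so reads were recovered by division: 1 read was worth 1.03 (soft), 0.943 (intermediate) and 1.03 (stiff) normalized counts. Ratios used a pseudocount of 1, and genes with a mean of at least 50. The edgeR test needs replicates and was not run. Gene models and exon overlaps came from GENCODE vM39 on GRCm39, and near-identical transcripts from blastn. The computation was checked on simulated data. Named genes were the 10 genes, the others of their families and the highest and lowest gene of each list, except for items not reported here. Further list genes were named for their role after their values were seen. The genes and lists were chosen with earlier results of these data known. The alternatives were other pseudocounts, minimum means, scalings, thresholds, transcript lengths and a length and GC trend.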

Additional observations from a re-analysis of the deposited data

How the results depend on the processing

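With 1 library per level, leaving out a replicate was not possible, and no count model was run. No paired analysis was possible because each level has a single library. Scaling by total reads or by the upper quartile moved the median of all genes in stiff to soft by -0.055 and -0.058, and the members' median from 0.43 to 0.37 under both. The number of members past 0.5 in intermediate to soft went from 2 to 1 with a pseudocount of 10 or either scaling, and to 0 after the trend or at a threshold of 1; at that threshold 1 was left in stiff to soft and 1 in stiff to intermediate. Over all genes, the counts past the threshold in either direction, for a threshold of 1, then minimum means of 10, 200 and none, were 428, 2907, 1218 and 9063 in stiff to soft, 20, 1366, 270 and 7520 in intermediate to soft, and 148, 2007, 612 and 8136 in stiff to intermediate. With merged exons as the length, the stiff minus soft share was 11.3 percentage points for Acta2 (9.46 otherwise), -2.95 for Tpm4 (-1.68) and 0.014 for Cfl1 (-0.295, so the sign reversed); without length scaling it was 12.1 for Acta2 and 20.4 for Myl9 (29.0 otherwise). Counting CArG boxes before the start only gave 1.62% of genes. Cspg4, a mural marker, turned to -0.12 and -0.23 in stiff to soft under the trends. The low depth of Myl12b and Myh10 limits what can be read from their steps.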

Other observations

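Actb is widely used as a reference gene, so it was set beside 12 others of that use. Gapdh, the glycolytic enzyme, stood at 52373, 57394 and 69395 normalized counts on the soft, intermediate and stiff plates, a log2 ratio of stiff to soft of 0.41. The Actb to Gapdh ratio of reads was 0.901 in soft, 0.863 in intermediate and 1.21 in stiff. Of the 13 reference genes listed, Polr2a had the highest log2 ratio of stiff to soft at 0.85, and their median was 0.20. Rplp0, a ribosomal protein gene, had the lowest ratio at -0.22. Sdha had 0.01 and Ppia -0.06; they were named after their values were seen.

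Together the 10 genes took 0.638% (0.635 to 0.642) of the reads in soft, 0.653% (0.650 to 0.656) in intermediate and 0.935% (0.931 to 0.939) in stiff, with exact 95% binomial intervals that cover counting error only.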
